A study of Homo sapiens with 2 samples.

Results

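CCN2, FN1, ACTA2, TAGLN, VIM, SNAI2, ZEB1, CDH2, MMP14 and AMOTL2 are 10 genes known from mesenchymal cells or from transcription driven by YAP, out of 57351 gene symbols in the deposited table. They were chosen by name with earlier results of these data in view, so their differences are a description and carry no test. RNA-seq had been made from 22Rv1, a castration-resistant human prostate cancer cell line of luminal epithelial type. The shEIF3F cells expressed a short hairpin RNA against EIF3F, a subunit of the translation initiation factor complex eIF3, and the shCON cells a vector control. Each group was 1 library, with 1 hairpin, so no difference has a replicate check, and off-target effects of the hairpin and effects of losing EIF3F cannot be told apart. Levels are given in TPM, a transcript abundance scaled by the length of the transcript and the total of its library. The number of reads behind a value cannot be had from TPM, so the depth is unknown.

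YAP and its paralog TAZ (encoded by WWTR1) are coactivators that enter the nucleus when the Hippo kinases MST and LATS are inactive, and bind DNA through TEAD factors. CCN2 and AMOTL2 are widely used readouts of that activity. Epithelial-mesenchymal transition is a change of cell state in which factors such as SNAI2 and ZEB1 repress epithelial cadherin, while N-cadherin, vimentin, fibronectin and smooth muscle proteins are made. Serum response factor (SRF) with its MRTF coactivators drives many of the contractile genes, among them ACTA2 and TAGLN.

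The reported recognition sequence of TEAD factors, GGAATG, is shown in the 300-base window around a transcript start of CCN2, ACTA2 and AMOTL2, 3 of the 4 genes called higher in shEIF3F cells, shown because a match was found there. ACTA2 and AMOTL2 each have 2 windows, and the one with a match is printed. The windows reach from 250 bases before the start to 50 after it and come from RefSeq, build GRCh38.p14, all on the minus strand and printed 5′ to 3′. Capitals mark GGAATG, its reverse complement CATTCC, and TATAAA, the TATA box. They lie at chr6:131951323-131951622 for CCN2, chr10:88952724-88953023 for ACTA2 and chr3:134374398-134374697 for AMOTL2.
CCN2: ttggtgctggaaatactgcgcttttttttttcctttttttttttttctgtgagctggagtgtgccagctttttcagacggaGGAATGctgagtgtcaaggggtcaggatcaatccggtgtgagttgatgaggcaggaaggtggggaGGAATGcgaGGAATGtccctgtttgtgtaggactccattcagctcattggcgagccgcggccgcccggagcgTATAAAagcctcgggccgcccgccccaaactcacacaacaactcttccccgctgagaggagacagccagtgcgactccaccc
ACTA2: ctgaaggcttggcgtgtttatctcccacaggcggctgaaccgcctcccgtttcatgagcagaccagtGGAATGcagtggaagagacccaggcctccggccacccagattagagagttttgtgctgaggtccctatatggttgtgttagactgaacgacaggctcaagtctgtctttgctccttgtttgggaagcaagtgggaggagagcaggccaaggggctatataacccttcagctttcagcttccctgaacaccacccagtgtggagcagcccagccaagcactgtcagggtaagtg
AMOTL2: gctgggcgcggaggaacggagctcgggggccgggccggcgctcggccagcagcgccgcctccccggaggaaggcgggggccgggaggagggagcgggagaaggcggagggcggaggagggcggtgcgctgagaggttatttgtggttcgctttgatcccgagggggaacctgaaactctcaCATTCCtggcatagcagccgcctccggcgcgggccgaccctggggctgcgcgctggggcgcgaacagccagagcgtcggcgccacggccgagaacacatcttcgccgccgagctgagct

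The CCN2 window held GGAATG 3 times, beginning at positions -169, -104 and -95 from the transcript start, and a TATA box at -32. ACTA2 had a single match at -183 and AMOTL2 a single CATTCC at -69. On either strand, 14.0% of all 35116 windows held at least 1 match and 0.128% (45 windows) at least 3. Of the 10 genes, 8 had a window in the table, without SNAI2 and TAGLN, and 4 of these 8 had a match in at least 1 window: CCN2, ACTA2, AMOTL2 and ZEB1, the last with 7 windows. Counted by gene, 16.7% of 27305 genes had a match. No FN1, MMP14, VIM or CDH2 window held the TEAD letters. The E-box bound by SNAI and ZEB proteins, CAGGTG with its complement CACCTG on the other strand, was in 20.6% of all windows and, of the 8 genes with a window, in those of ZEB1 only. An exact consensus CArG box, the SRF element, was in no window of these genes and in 1.29% of all windows. With 1 G or C allowed among the 6 central bases, a form chosen after the data were seen, the ACTA2 window printed above held 2 matches, at -121 and -71, against 8.13% of all windows with at least 1. A match is a description of these letters and not of binding.

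EIF3F itself was at 17.0 TPM in shEIF3F cells and 991 TPM in shCON cells, in the direction of the labels. Differences are given as log2 ratios, log2((shEIF3F TPM + 1) / (shCON TPM + 1)), for the 13306 genes that averaged at least 1 TPM over both libraries (called measured here), and a gene at 1 or more, or at -1 or less, is called at least 2-fold higher or lower, a rule of size and not a test. Over all 13306 genes, 8.43% were called higher and 25.5% lower, with a median log2 ratio of -0.36. With that median subtracted from every ratio, here called centring, the shares were 14.7% higher and 16% lower. Of the 10 genes, 8 were measured: 4 were at least 2-fold higher (CCN2, ACTA2, FN1, AMOTL2), 2 at least 2-fold lower (SNAI2, MMP14) and 2 within 2-fold (TAGLN, VIM). ZEB1 and CDH2 lay under the minimum. Nothing is read from these counts, because the same contrast was known when the genes were chosen. In a bulk library, a change in the share of cells that make a transcript cannot be told apart from a change in the level per cell.

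**Figure D1:**
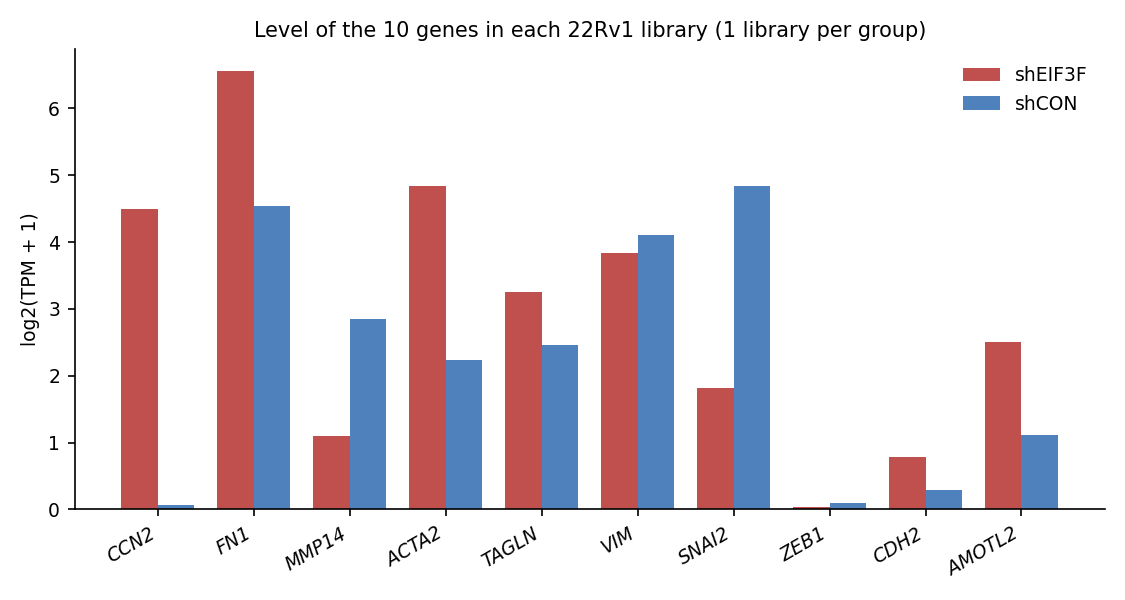
Level of each of the 10 genes as log2(TPM + 1) on the vertical axis, with a bar for the shEIF3F library and a bar for the shCON library. The CCN2 bar is near 0 in shCON (0.05 TPM) against 21.6 TPM in shEIF3F, SNAI2 and MMP14 are lower in shEIF3F, and ZEB1 is near 0 in both.

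The secreted and matrix genes differed in both directions. CCN2, a matricellular protein also called CTGF, was at 21.6 TPM in shEIF3F cells and 0.05 TPM in shCON cells, a log2 ratio of 4.43. It was the lowest of the 10 genes in shCON and the third highest in shEIF3F. Its shCON value is close to the rounding step of the table, so no plain ratio is given, and the log2 ratio ran between 2.39 and 7.17 with pseudocounts of 5 and 0.1 TPM. FN1, which encodes the matrix glycoprotein fibronectin, was at 93.2 TPM in shEIF3F cells and 22.3 TPM in shCON cells (log2 ratio 2.02). FN1 had the highest level of the 10 genes in shEIF3F, where it made up 53.8% of their summed 173.2 TPM, against 27.2% of 81.95 TPM in shCON. MMP14, a membrane-bound metalloproteinase that cleaves collagen and activates MMP2, was at 1.15 TPM in shEIF3F cells and 6.23 TPM in shCON cells (log2 ratio -1.75). With the trend of log2 ratios with transcript GC content removed, MMP14 stood at -1.002, at the edge of the 2-fold rule.

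The cytoskeletal genes were not alike. ACTA2, smooth muscle alpha-actin, was at 27.5 TPM in shEIF3F cells and 3.73 TPM in shCON cells (log2 ratio 2.59), which put it second in level among the 10 genes in shEIF3F and sixth in shCON. TAGLN, the actin-binding protein transgelin, was at 8.52 TPM in shEIF3F cells and 4.52 TPM in shCON cells (log2 ratio 0.79). That is within 2-fold as deposited and past it after centring (1.14). VIM, the intermediate filament vimentin, was at 13.3 TPM in shEIF3F cells and 16.2 TPM in shCON cells (log2 ratio -0.26, and 0.10 after centring). Exons of ACTA2, TAGLN and VIM overlap genes on the opposite strand in GENCODE release 29, and whether strand was used in counting is not given in the sources used here. FAS, opposite ACTA2, was at 3.29 TPM in shEIF3F cells and 1.68 TPM in shCON cells. PCSK7, opposite TAGLN, was at 6.77 TPM in shEIF3F cells and 13.65 TPM in shCON cells, and VIM-AS1, opposite VIM, at 1.94 TPM in shEIF3F cells and 1.68 TPM in shCON cells. Their part in the 3 values was not tested.

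Of the transcription factors, SNAI2 (Slug), a zinc finger repressor of the E-cadherin gene, was at 2.53 TPM in shEIF3F cells and 27.5 TPM in shCON cells, a log2 ratio of -3.01. It was the highest of the 10 genes in shCON and the seventh in shEIF3F. ZEB1, a repressor of the same class, was at 0.03 TPM in shEIF3F cells and 0.07 TPM in shCON cells, so that no ratio is given. N-cadherin, encoded by CDH2 and characteristic of mesenchymal and neural cells, was at 0.73 TPM in shEIF3F cells and 0.23 TPM in shCON cells, also under the minimum. ZEB1 and CDH2, both used to define the mesenchymal state, were thus below 1 TPM in either library, and the name mesenchymal stands for what these genes are known for and not for a state of the cells.

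AMOTL2, an angiomotin family protein that binds and retains YAP and is itself induced by it, was at 4.66 TPM in shEIF3F cells and 1.17 TPM in shCON cells (log2 ratio 1.38). The difference of 3.49 TPM was the smallest among the 4 genes called higher, and with a pseudocount of 5 TPM the log2 ratio was 0.65, within 2-fold.

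**Figure D2:**
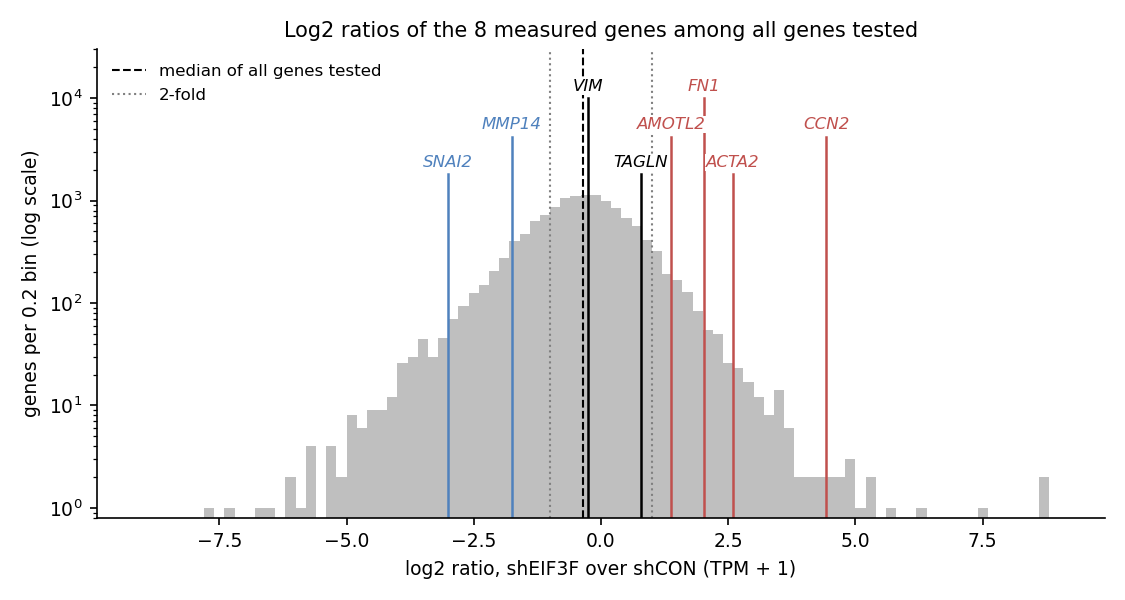
Histogram of the log2 ratio (shEIF3F over shCON, on TPM + 1) of the 13306 genes tested, with a logarithmic count axis, and a labelled line for each of the 8 measured genes. CCN2 lies at 4.43 on the right, SNAI2 at -3.01 on the left, and VIM (-0.26) next to the median of all genes (-0.36).

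By order from the highest log2 ratio of the 13306 genes, CCN2 was at place 15, ACTA2 at 104, FN1 at 229, AMOTL2 at 625, TAGLN at 1558 and VIM at 6137. Counted from the lowest, SNAI2 was at place 237 and MMP14 at 1239. The order of levels thus changed between the libraries. In shEIF3F cells it ran FN1, ACTA2, CCN2, VIM, TAGLN, AMOTL2, SNAI2, MMP14, CDH2 and ZEB1, and in shCON cells SNAI2, FN1, VIM, MMP14, TAGLN, ACTA2, AMOTL2, CDH2, ZEB1 and CCN2. With 1 library a group, no spread says which neighbours in these orders differ.

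Among measured genes on a list of reported YAP and TAZ targets, those past 2-fold were all higher in shEIF3F cells. The list includes CCN2 and AMOTL2 and was drawn up with earlier results in view, so its counts are a description. It names 23 genes, and 15 of them were measured. Of these 15, 8 (53.3%) passed 2-fold upward and 0 downward, against 8.43% and 25.5% of all genes. Their median log2 ratio was 1.11, against -0.36 over all genes. Without CCN2 and AMOTL2, 6 of the 13 measured were higher and 0 lower, with a median of 0.82. NT5E, the ectonucleotidase CD73, was at 23.95 TPM in shEIF3F cells and 0.93 TPM in shCON cells (log2 ratio 3.69). IGFBP3, which binds insulin-like growth factors, was at 66.05 TPM in shEIF3F cells and 10.5 TPM in shCON cells (2.54). CCN1, the matricellular paralog of CCN2, was at 5.67 TPM in shEIF3F cells and 1.56 TPM in shCON cells (1.38). The other 3, named after their values were seen, were CRIM1 (1.26), the Hippo kinase LATS2 (1.21) and MYOF (1.11). The other 7 measured targets lay within 2-fold, and 4 of them had ratios below 0: ASAP1 (-0.72), RBMS3 (-0.19), ARHGEF17 (-0.19) and AJUBA (-0.01). The 8 targets under the minimum differed in both directions, and 3 of them are named here after their values were seen. ANKRD1 was at 0.88 TPM in shEIF3F cells and listed at 0 in shCON cells. DOCK5 was at 0.30 TPM in shEIF3F cells and 1.55 TPM in shCON cells, and CCDC80 at 0.34 TPM in shEIF3F cells and 1.09 TPM in shCON cells. At a pseudocount of 5 TPM the count of higher targets was 3 (3.55% of all genes), and with the minimum raised to an average of 5 TPM it was 4 (7.48% of all genes). A match to GGAATG or CATTCC was found in 10 of the 17 listed targets that had a window (58.8%, against 16.7% of 27305 genes). NT5E and IGFBP3 were among the 7 without one. The list was made of reported targets, so this share describes the list and not these data.

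The transcripts of the factors themselves lay mostly within 2-fold. YAP1 was at 4.55 TPM in shEIF3F cells and 3.07 TPM in shCON cells (log2 ratio 0.45), and WWTR1 at 1.73 TPM in shEIF3F cells and 2.61 TPM in shCON cells (-0.40). TEAD2, the most abundant TEAD transcript, was at 35.1 TPM in shEIF3F cells and 68.2 TPM in shCON cells (-0.94). TEAD4 was at 7.27 TPM in shEIF3F cells and 19.4 TPM in shCON cells (-1.30), the only one of the 7 measured genes of this list past 2-fold, and within it after centring (-0.95). TEAD1 had a log2 ratio of -0.51, TEAD3 of -0.39 and VGLL4, a TEAD-binding repressor, of -0.15, while VGLL1, VGLL2 and VGLL3 lay below the minimum at 0.23 TPM or less. RNA levels do not show how much YAP was in the nucleus.

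Upstream of YAP, 2 of 22 measured Hippo kinases and adaptors were at least 2-fold higher, LATS2 and AMOTL2, both also listed as targets. That is 9.09%, against 8.43% of all genes, and 6 were at least 2-fold lower. These 6 are 27.3% of the measured genes, close to the 25.5% of all genes that were lower, and the list median of -0.26 is near that of all genes (-0.36). NF2, which encodes merlin, an activator of LATS kinases, was at 3.09 TPM in shEIF3F cells and 15.8 TPM in shCON cells (log2 ratio -2.04). AMOT, the paralog of AMOTL2, was at 0.20 TPM in shEIF3F cells and 3.91 TPM in shCON cells (-2.03), opposite in sign to AMOTL2. RASSF1 (-1.87), LIMD1 (-1.75), TAOK3 (-1.47) and TAOK2 (-1.35, named after its values were seen) were the others. After centring TAOK2 was within 2-fold (-0.99), and the list median was 0.10, against -0.14 with the GC trend removed.

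**Figure D3:**
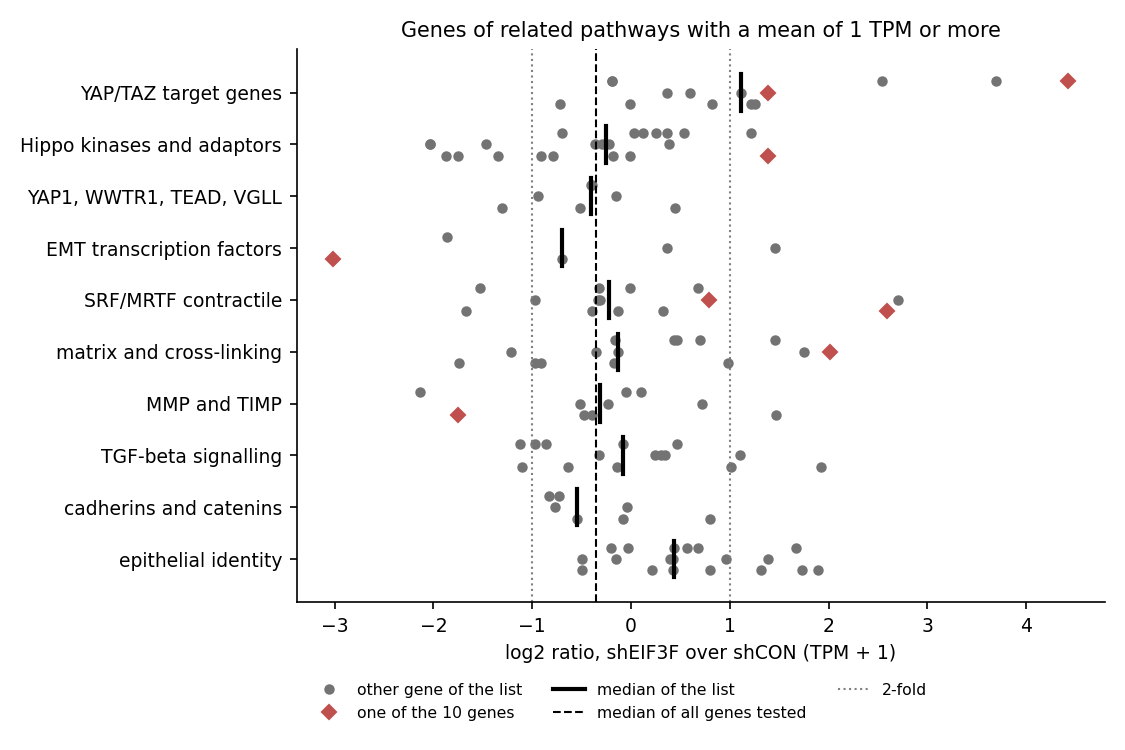
Log2 ratio (shEIF3F over shCON, on TPM + 1) of each measured gene in 10 lists, 1 list a row, with diamonds for the 10 genes described and a bar at the list median. The median of the YAP/TAZ targets (1.11) is the one list median above the 2-fold line, and the epithelial identity genes have the next highest (0.43).

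Contractile genes driven by SRF and MRTF showed no common direction. Of 14 measured, 2 were at least 2-fold higher and 2 lower, 14.3% each, against 8.43% and 25.5% of all genes. Their median was -0.22. Beside ACTA2 the higher one was MYL9, the regulatory light chain of non-muscle and smooth muscle myosin, at 17.2 TPM in shEIF3F cells and 1.79 TPM in shCON cells (log2 ratio 2.71). FHL1 was at 0.47 TPM in shEIF3F cells and 3.67 TPM in shCON cells (-1.67), and calponin CNN2 at 19.7 TPM in shEIF3F cells and 58.6 TPM in shCON cells (-1.53). SRF (-0.40), MRTFA (-0.01) and MRTFB (0.32), named after their values were seen, lay within 2-fold. After centring 4 were higher and 2 lower (against 14.7% and 16% of all genes), with a median of 0.14. With the GC trend removed 3 were higher and 1 lower (against 13.3% and 13.9% of all genes). CNN2 was then within 2-fold (-0.78) and the median was 0.52.

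Within the actin family the isoforms parted. The cytoplasmic actins ACTB, at 1189 TPM in shEIF3F cells and 1921 TPM in shCON cells (log2 ratio -0.69), and ACTG1, at 1672 TPM in shEIF3F cells and 5507 TPM in shCON cells (-1.72), were far more abundant than ACTA2 and had ratios below 0, ACTG1 past 2-fold. ACTG2 was at 0.32 TPM in shEIF3F cells and 0.12 TPM in shCON cells, ACTA1 at 0.24 TPM in shEIF3F cells and 0.06 TPM in shCON cells, and ACTC1 was listed at 0 in both. Actin genes are close in sequence and have processed pseudogenes, so reads can be split among them and each value is uncertain. TAGLN likewise differed from its relatives. TAGLN2 was at 203.5 TPM in shEIF3F cells and 741.6 TPM in shCON cells (-1.86) and CNN3 at 7.09 TPM in shEIF3F cells and 42.6 TPM in shCON cells (-2.43), while TAGLN3 and CNN1 were listed at 0 in both. Among intermediate filaments, NES (nestin) was at 0.17 TPM in shEIF3F cells and 16.2 TPM in shCON cells (-3.88), and PRPH (peripherin) at 19.8 TPM in shEIF3F cells and 1.85 TPM in shCON cells (2.87). The keratins KRT8 (0.21), KRT18 (0.95) and KRT19 (-0.29) lay within 2-fold of shCON, KRT18 past it after centring (1.31).

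FN1 was one of 3 matrix and cross-linking genes, of 15 measured, at least 2-fold higher (20%, against 8.43% of all genes). Another was COL4A2, a chain of basement membrane collagen, at 34.3 TPM in shEIF3F cells and 9.46 TPM in shCON cells (log2 ratio 1.76). FBLN1 (-1.74) and COL6A2 (-1.22) were at least 2-fold lower (13.3%, against 25.5% of all genes), and the median was -0.13. The fibrillar collagens were scarce: COL1A1 was at 0.83 TPM in shEIF3F cells and 2.43 TPM in shCON cells (-0.91), and COL1A2 and COL3A1 were below the minimum. After centring 5 matrix genes were higher and 1 lower (against 14.7% and 16% of all genes), with a median of 0.23. With the GC trend removed these counts were also 5 and 1 (against 13.3% and 13.9% of all genes). The median was then 0.58 and COL6A2 stood at -0.07.

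Beside MMP14, the membrane-anchored MMP17 was at 0.54 TPM in shEIF3F cells and 5.75 TPM in shCON cells (log2 ratio -2.13), whereas MMP24, also membrane-bound, was at 3.57 TPM in shEIF3F cells and 0.65 TPM in shCON cells (1.47). These were the 3 genes past 2-fold among 10 measured proteases, inhibitors and partners, whose median was -0.32. Of all genes, 34% were past 2-fold in either direction. FURIN, a convertase that activates MMP14, was at 29.3 TPM in shEIF3F cells and 17.5 TPM in shCON cells (0.72). The sign of that median turned with the scaling: it was 0.04 after centring, 0.09 after rescaling and 0.61 with the GC trend removed, where MMP17 was within 2-fold (-0.99).

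Of the transcription factors of epithelial-mesenchymal transition, 5 of 14 were measured. TCF3 was at least 2-fold lower with SNAI2, at 16.0 TPM in shEIF3F cells and 60.8 TPM in shCON cells (log2 ratio -1.86). SOX9 was higher, at 11.3 TPM in shEIF3F cells and 3.46 TPM in shCON cells (1.46). TWIST1 (0.37) and TCF4 (-0.69) lay within 2-fold. SNAI1 was at 0.09 TPM in shEIF3F cells and 0.10 TPM in shCON cells, ZEB2 at 0.01 TPM in shEIF3F cells and 0.23 TPM in shCON cells, and TWIST2 and FOXC2 were listed at 0 in both. Of 15 measured genes of TGF-beta signalling, a pathway known to induce the transition, 3 were at least 2-fold higher and 2 lower. These are 20% and 13.3%, against 8.43% and 25.5% of all genes, and the median was -0.08. BAMBI, a decoy receptor, was at 12.95 TPM in shEIF3F cells and 2.68 TPM in shCON cells (1.92), TGFBR2 had a log2 ratio of 1.102, SMAD2 of 1.01, TGIF1 of -1.12 and LTBP4 of -1.101. After centring 3 were higher and 0 lower (against 14.7% and 16% of all genes), with a median of 0.27. With the GC trend removed 4 were higher and 1 lower (against 13.3% and 13.9% of all genes). The median was then 0.57 and LTBP4 stood at 0.04.

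E-cadherin and other epithelial genes are among those that the factors of the transition repress, and other cadherins and the catenins are given beside them. CDH1, which encodes E-cadherin and is repressed by SNAI2, was at 121 TPM in shEIF3F cells and 69.01 TPM in shCON cells, a log2 ratio of 0.80, within 2-fold as deposited and past it after centring (1.16). CDH3 was at 35.4 TPM in shEIF3F cells and 36.45 TPM in shCON cells (-0.04), CDH6 had a log2 ratio of -0.73, CDH4 was listed at 0 in shEIF3F cells and at 0.04 TPM in shCON cells, and CDH5 and CDH11 were listed at 0 in both. The catenins CTNND1 (-0.83), CTNNB1 (-0.77) and CTNNA1 (-0.55) lay within 2-fold. Of 19 measured epithelial identity genes, 5 (26.3%) were at least 2-fold higher and 0 lower, against 8.43% and 25.5% of all genes. Their median was 0.43, against -0.36 over all genes. OCLN, a tight junction protein, was at 8.94 TPM in shEIF3F cells and 1.68 TPM in shCON cells (1.89), EPCAM had a log2 ratio of 1.73, the transcription factor ELF3 of 1.68, CLDN3 of 1.39 and TJP3 of 1.31. After centring 8 were higher and 0 lower, while 14.7% of all genes were higher and 16% lower.

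Markers of other cell types were mostly near 0. Among smooth muscle markers 1 of 8, SMTN, was measured, the summed level was 21.2 TPM in shEIF3F cells and 27.4 TPM in shCON cells, CNN1 and MYOCD were listed at 0 in both, and MYH11 was at 0.02 TPM in shEIF3F cells and 0.06 TPM in shCON cells. Of 10 fibroblast markers 3 were measured, summing to 27.2 TPM over the list in shEIF3F cells and 40.9 TPM in shCON cells. LUM, at 20.85 TPM in shEIF3F cells and 24.3 TPM in shCON cells, and DCN, at 4.86 TPM in shEIF3F cells and 12.9 TPM in shCON cells, held most of that sum, and PDGFRA, THY1 and FAP were listed at 0 in both. No endothelial marker of 8 reached the minimum. Of 8 leukocyte markers 3 did, CD68 and HLA-DRA among them, with a summed level of 8.45 TPM in shEIF3F cells and 7.57 TPM in shCON cells and PTPRC at 0.03 TPM in shEIF3F cells and 0.11 TPM in shCON cells. All 10 prostate line markers were measured, with FOLH1, which encodes prostate-specific membrane antigen, at 482 TPM in shEIF3F cells and 145.6 TPM in shCON cells. The part of other cell types in the results was not tested beyond these levels.

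**Figure D4:**
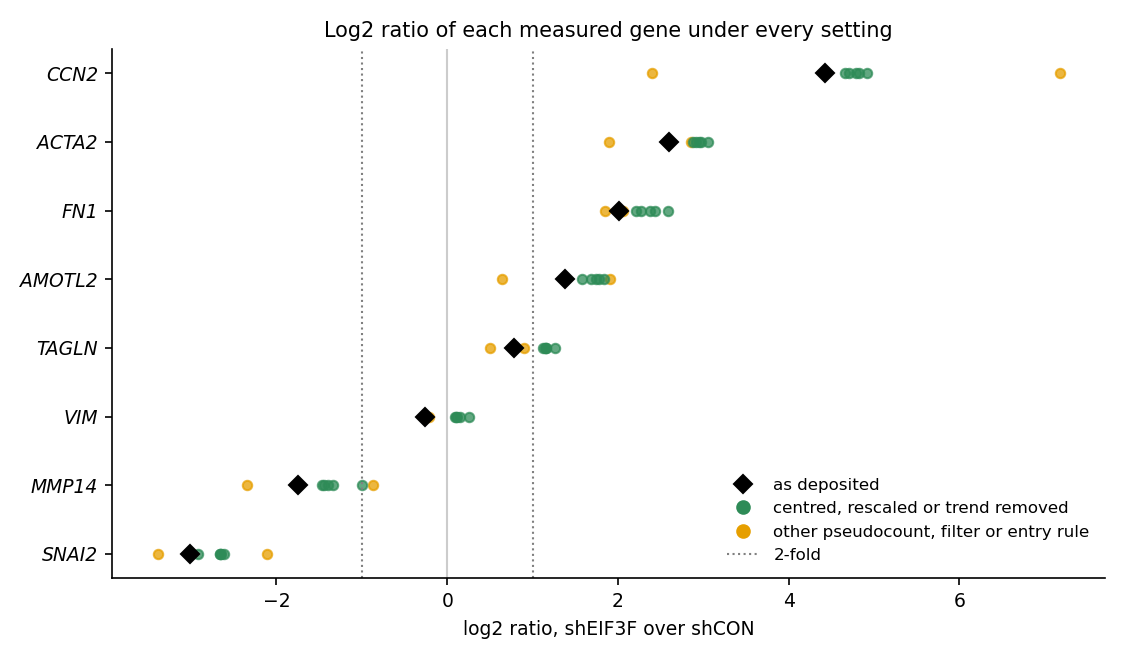
Log2 ratio of the 8 measured genes under every setting, 1 gene a row, with a diamond for the values as deposited and circles for the alternatives. CCN2, ACTA2, FN1 and SNAI2 stay past 2-fold in one direction throughout, TAGLN crosses 1 when ratios are centred (1.14), and VIM stays near 0.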

How the data were processed

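Total RNA of 22Rv1 cells was extracted with Trizol and made into libraries with an Illumina TruSeq RNA kit, per the labels' protocols. The authors deposited a TPM value for every gene entry, rounded to 2 decimals and summing to 994055 in shEIF3F and 992454 in shCON. Per the submitters' processing notes, CASAVA, HISAT2 and build hg19 were used, with no role stated. The gene counter, its annotation and its strand setting were not given in the sources used here. Read numbers cannot be had from TPM, so the depth is unknown and no interval was computed.

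Entries of one symbol were summed (1533 repeats), 27 date-like symbols were left out, and so were 6052 symbols of small RNA genes by GENCODE release 29. Log2 ratios used a pseudocount of 1 TPM and a minimum mean of 1 TPM, and a threshold of 1. Alternatives were pseudocounts of 0.1 and 5, no minimum or one of 5 TPM, centring on the median, rescaling without the 100 most abundant genes, centring within 20 bins of transcript GC content, length or mean TPM, small RNAs included, and 1 entry per symbol, the most abundant. GC content, known for 99.2% of genes, is that of the longest transcript of the gene's type.

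The genes and the pathway lists were chosen with earlier results of these data known. Named genes are EIF3F, the 10 genes, up to 5 per list with the largest absolute log2 ratio, all members of the small families described, and the 3 genes nearest in level to each of CCN2, ACTA2, FN1 and SNAI2. Some genes under this rule are not reported here. The calculation was tested on simulated data. Python 3.11.15, NumPy 2.4.6, pandas 2.3.3 and matplotlib 3.10.9 were used.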

Additional observations from a re-analysis of the deposited data

How the results depend on the processing

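Across the 11 alternatives, CCN2, ACTA2, FN1 and SNAI2 kept their direction and stayed past 2-fold. The count of the 10 genes at least 2-fold higher ran between 3 and 5 (4 as deposited), and the count at least 2-fold lower was 1 with a pseudocount of 5 TPM (MMP14 at -0.87) and 1 with the minimum raised to 5 TPM, which leaves MMP14 and AMOTL2 out, against 2 otherwise. TAGLN passed 2-fold under the 5 settings that centre or rescale the ratios (1.13 to 1.27). Over all genes, those at least 2-fold higher numbered 1122 and those lower 3398 as deposited. The counts were 473 and 1897 with a pseudocount of 5 TPM, 1956 and 2130 after centring, 1974 and 2142 after rescaling, 1757 and 1838 with the GC trend removed, 1921 and 2153 with the length trend removed, and 1968 and 2117 when centred within bins of mean TPM. With the minimum raised to 5 TPM, 614 were higher and 2373 lower, with fewer genes tested. The share of higher genes among those past 2-fold was 24.8% as deposited and 47.9% after centring, and which scaling is right was not tested. Rescaling moved ratios by a median of 0.38. Leaving out a replicate was not possible with 1 library per group. No paired analysis was possible because each group has 1 library.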

Other observations

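The genes nearest in level to 4 of the genes were found by Euclidean distance between log2(TPM + 1) values over the 2 libraries, so 2 points per gene define the likeness and nothing follows from it about function. Nearest to CCN2 was ZC3H12B, at 21.5 TPM in shEIF3F cells and 0.03 TPM in shCON cells, then the pseudogene TECRP1 at 20.3 TPM in shEIF3F cells and 0.05 TPM in shCON cells, and LUZP6 at 17.9 TPM in shEIF3F cells and listed at 0 in shCON cells. Nearest to ACTA2 were UBA6-AS1, DKK1, a secreted Wnt antagonist at 24.1 TPM in shEIF3F cells and 3.96 TPM in shCON cells, and RAB18. FN1 was nearest to RAB10, at 87.8 TPM in shEIF3F cells and 22.6 TPM in shCON cells, then ST7 and DMKN. SNAI2 was nearest to TAF1C, at 2.63 TPM in shEIF3F cells and 25.03 TPM in shCON cells, then POC1A and TESC.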
